A study of Arabidopsis thaliana with 12 samples.

Results

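AT5G39980, AT1G31790 and AT3G49740 are Arabidopsis thaliana genes for pentatricopeptide repeat proteins that gave a lower array signal in recovery from cold than in the cold. They are 3 of 21 genes of this family, taken from known loci, that had a probe listed with 1 gene only. These 21 were listed by hand and may not be every such gene on the array. There were 690 such probes with a known locus and 3439 probes in all. Each was measured by 1 probe, and none of them was listed on a probe shared with other genes. The genes were chosen by the very comparison described here, lower signal in recovery than in cold, so their change is given as a description and without a test.

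Pentatricopeptide repeat proteins are encoded in the nucleus, and most of them are imported into chloroplasts or mitochondria. There they bind single-stranded organelle RNA in a sequence-specific way and act in its splicing, editing, end processing, stability and translation. In leaves, loss of single members can pale the plant or stop photosynthesis, because chloroplast transcripts for photosynthesis and for the chloroplast's own gene expression machinery depend on them.

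All plants were wild type of the ecotype Columbia 0, a laboratory strain of thale cress, and total RNA was measured on expression arrays. The recovery group (6 samples) had first spent 24 h in medium light at 4 °C, conditions called photoinhibitory in the labels, and then 24 h at 20 °C, again in medium light. The cold group (6 samples) was taken after the 24 h in medium light at 4 °C. The 2 groups thus share the cold treatment and differ in the time and warmth that followed it, which cannot be told apart, and there was no group kept at 20 °C throughout. The labels name neither the tissue nor the number of plants in a sample.

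Signals are linear, never below 0, and reach 100 on 11 of the 12 arrays. Whole arrays differed between the groups: the median signal of a sample was 0.0971 to 0.128 in recovery and 0.276 to 0.315 in cold, and 11.3 to 16.4% of probes were listed at 0 in recovery, against 5.26 to 6.57% in cold. Changes are therefore given as differences of log2(signal + 0.0415) after quantile normalization, and so show how a gene moved relative to the rest of its array. Consecutive samples (1 with 2, 3 with 4, 5 with 6) were averaged within each group. Thus n is 3 per group, and an SD covers these 3 values. The SE of a change is the moderated SE of limma, the linear model used for the calls. Its variance is drawn partly from all probes, so it can be smaller or larger than the 3 values alone would give. Over all probes, deviations of consecutive samples from the group mean correlated at r = -0.033 to 0.063 in recovery and 0.34 to 0.50 in cold. Over the brightest 25% of probes they correlated at 0.32 to 0.55 in recovery and 0.72 to 0.84 in cold. Deviations from a mean that both samples enter are pulled below 0 in correlation. Values near 0 are therefore not read as a lack of likeness. Averaging was kept for both groups as the choice that counts fewer independent samples. Nothing in the labels says that samples came from separate plants, so the spread may be technical. Of 21 markers listed for leaf mesophyll, guard cells, trichomes and epidermis, root and phloem, 1 had a probe of its own, LHB1B2 (AT2G34420), an antenna protein of photosystem II in mesophyll, with a signal of 23.0 to 31.4 in recovery and 6.83 to 8.48 in cold. In such bulk samples, fewer cells of a type and less RNA per cell cannot be told apart.

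AT5G39980 had a signal of 0.103, 0.182, 0.0749, 0.0558, 0.0928 and 0.0700 in recovery samples 1 to 6, against 2.75, 2.82, 1.44, 1.54, 2.96 and 2.83 in cold samples 1 to 6. The groups lay far apart: in deposited signal the highest recovery sample and the lowest cold sample still differed by 7.94-fold, higher in cold. Recovery sample 2 stood above the other 5 recovery samples, and cold samples 3 and 4 below the other 4 cold samples. On the normalized scale the gene averaged -2.31 ± 0.24 in recovery and 1.02 ± 0.59 in cold (SD, n = 3 each). The change was -3.33 ± 0.27 (SE), a 10.1-fold lower normalized level in recovery, which is not on the scale of the 7.94-fold gap. On this scale it was the largest fall among the 21 listed pentatricopeptide repeat genes and the fifth largest among the 690 probes of 1 gene. Among the same 690 probes, AT1G31790 and AT3G49740 ranked 8 and 64.

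AT1G31790 had a signal of 0.135, 0.141, 0.0298, 0.0574, 0.0186 and 0.0189 in recovery samples 1 to 6, against 1.29, 1.26, 0.982, 1.02, 1.33 and 1.39 in cold samples 1 to 6. The recovery values fell into 3 levels that followed the pairs of samples, high in samples 1 and 2 and low in samples 5 and 6, whereas the cold values varied little. In 3 of the 6 recovery samples the signal lay below the pseudocount of 0.0415, and the change was -2.99 with that constant halved and -2.40 with it doubled, against -3.49 and -3.07 for AT5G39980 and -1.28 and -1.13 for AT3G49740. On the normalized scale the gene averaged -2.78 ± 0.72 in recovery and -0.041 ± 0.29 in cold (SD, n = 3 each). Its change was -2.74 ± 0.33 (SE), a 6.69-fold lower level in recovery.

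AT3G49740 had a signal of 0.192, 0.204, 0.179, 0.224, 0.163 and 0.193 in recovery samples 1 to 6, against 1.22, 1.26, 0.891, 0.933, 0.896 and 1.07 in cold samples 1 to 6. Both groups were tight, and no recovery sample was near the pseudocount. On the normalized scale the gene averaged -1.52 ± 0.12 in recovery and -0.29 ± 0.18 in cold (SD, n = 3 each). The change was -1.23 ± 0.17 (SE), a 2.34-fold lower level in recovery, which was the smallest of the 3 changes but had the smallest SE.

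**Figure D1:**
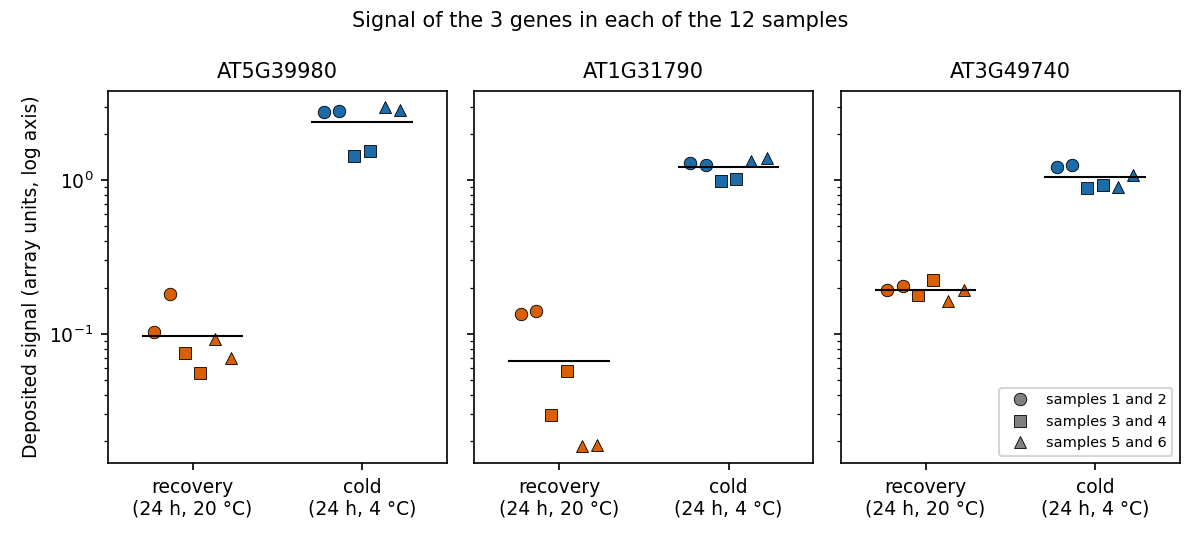
Deposited signal (vertical axis, array units, log scale) of AT5G39980, AT1G31790 and AT3G49740 in each of the 6 recovery (left in each panel, orange) and 6 cold samples (right, blue). Marker shapes show which samples were averaged as a pair, and lines give the mean of the 3 pair means. All recovery samples lie below all cold samples; the 6 recovery values of AT1G31790 spread from 0.0186 to 0.141, whereas those of AT3G49740 stay between 0.163 and 0.224.

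The separation itself has to be read against the array. All 6 recovery samples lay below all 6 cold samples in deposited signal for each of the 3 genes, but the same was true of 49.2% of all probes. After quantile normalization the 3 genes were still separated in this way, as were 15.9% of all probes. Nothing is read from either share, since the genes were chosen for being low in recovery.

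The place of a gene among the probes of its own array does not depend on how arrays are scaled. AT5G39980 stood at percentile 45.6 ± 6.57 in recovery and at 92.3 ± 2.89 in cold (SD, n = 3 each). It was thus near the middle of the array in recovery and among the brighter probes in the cold, at percentile 88.6 or above in every cold sample. AT1G31790 stood at percentile 34.4 ± 17.7 in recovery and at 86.0 ± 2.44 in cold. Its recovery samples ran from percentile 18.1 to 53.5, the widest range of the 3 genes. AT3G49740 stood at percentile 65.7 ± 2.46 in recovery and at 83.7 ± 1.80 in cold, so that it stayed above the middle of the array in all 12 samples.

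**Figure D2:**
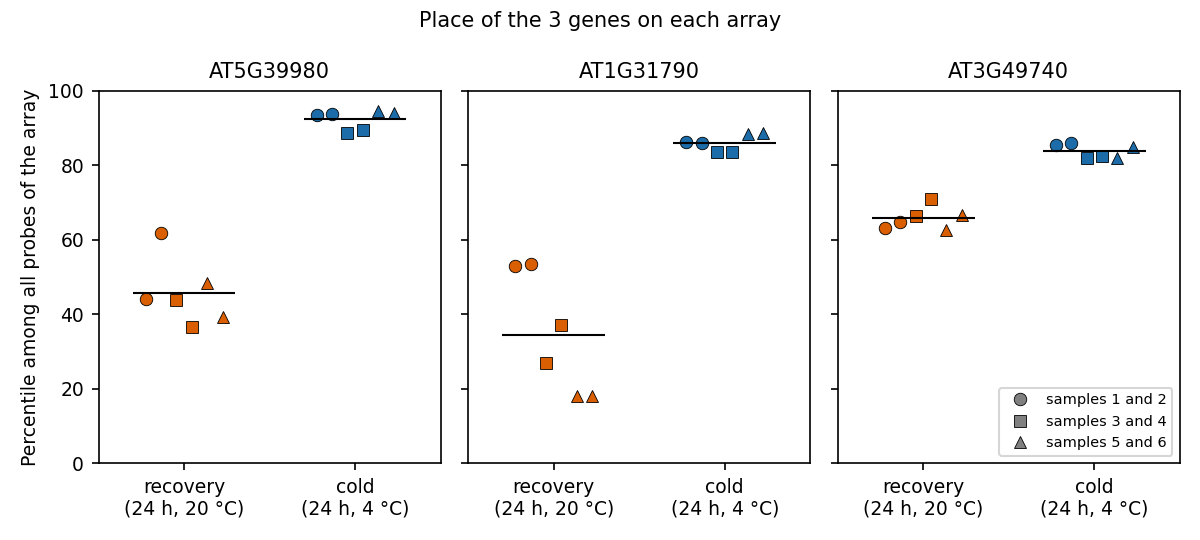
Percentile of each gene's signal among all 3439 probes of the same array (vertical axis, 0 to 100) in the 6 recovery (left, orange) and 6 cold samples (right, blue); shapes mark pairs and lines the mean of the 3 pair means. In recovery AT1G31790 reaches down to 18.1 and AT3G49740 stays at 62.7 or above; in cold all values lie between 81.9 and 94.4.

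The scaling between arrays set the size of the changes and not their sign. AT5G39980 changed by -3.33 after quantile normalization, -3.32 with cyclic loess, -2.96 with each sample centred on its median, -2.94 with signals brought to one median ahead of the pseudocount, and -4.14 as deposited. In the same order AT1G31790 changed by -2.74, -2.59, -2.51, -2.64 and -3.68, and AT3G49740 by -1.23, -1.33, -1.03, -0.90 and -2.21. The median of all probes changed by 0.11, 0.020, 0.31, 0.15 and -0.86 in these 5 scalings. Each of the 3 genes therefore lay below the median probe in all 5. The distance was 1.05 to 1.35 for AT3G49740, 2.61 to 2.86 for AT1G31790 and 3.08 to 3.45 for AT5G39980. Centring on medians moves all probes alike, so by construction these distances are the same centred as deposited. Nothing is read from the shared sign, since the genes were chosen for being low in recovery.

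**Figure D3:**
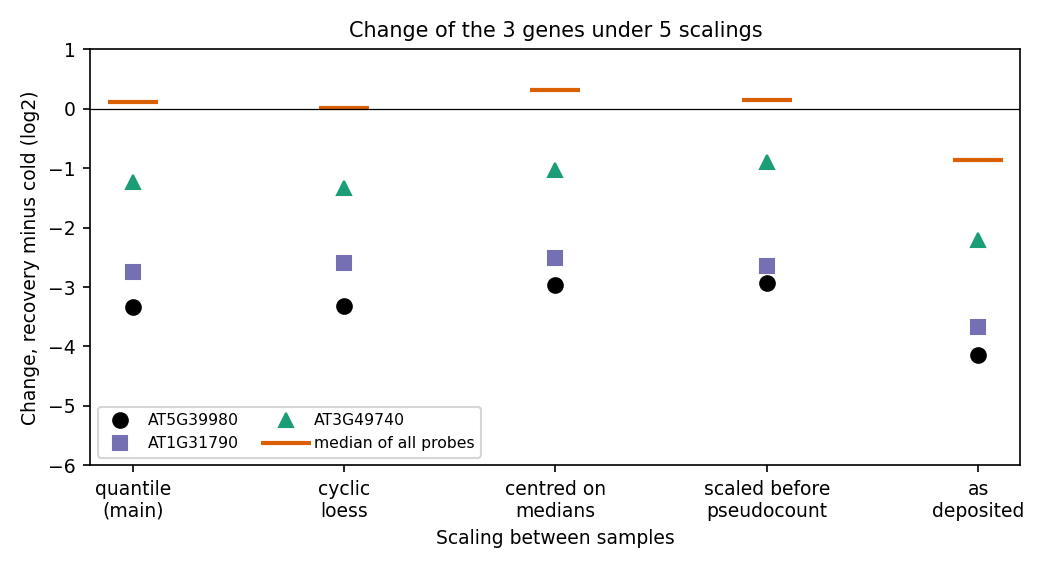
Change of the 3 genes (recovery minus cold, log2, vertical axis) under 5 ways of scaling the arrays (horizontal axis), with the median change of all probes as an orange dash. The order of the 3 genes is the same in all 5, and as deposited the median probe itself stands at -0.86. Centring on medians moves every gene by the same amount from its deposited change.

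Within a group the 3 genes did not all vary together. In recovery, deviations from the group mean correlated over the 6 samples at r = 0.44 for AT5G39980 with AT1G31790, -0.54 for AT5G39980 with AT3G49740 and -0.016 for AT1G31790 with AT3G49740. In the cold the same correlations were 0.88, 0.57 and 0.25, and AT5G39980 and AT1G31790 were both lowest in samples 3 and 4. These are descriptions over 6 arrays that share pairs, and no test was made.

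The genes most like each of them were sought among 459 probes of 1 gene with no sample listed at 0, by the Pearson correlation of normalized values over the 12 samples. Most of this likeness is the difference between the groups: 33 probes correlated with AT5G39980 above 0.9, 23 with AT1G31790 and 33 with AT3G49740. Nearest to AT5G39980 were AT4G18180 (r = 0.98), AT4G35660 and AT4G32060 (both 0.97), and AT1G32520 and AT1G31790 (both 0.96). In deviations from the group means AT1G31790 was the closest of these, at 0.49, and the other 4 gave 0.19 to 0.37. Nearest to AT1G31790 were AT4G32060 (0.98), AT4G31530 (0.97) and AT3G52070, AT5G39980 and AT4G18180 (each 0.96). Here likeness extended within the groups, with 0.86 for AT4G32060, 0.85 for AT3G52070 and 0.68 for AT4G31530 in deviations from the group means. AT5G39980 and AT4G18180 each gave 0.49. These values are limited by the recovery signals of AT1G31790, which followed the pairs and lay below the pseudocount in 3 of 6 samples. Nearest to AT3G49740 were CML30 (AT2G15680, a calmodulin-like calcium sensor by its name) at 0.98, AT2G46300 and AT2G41950 (both 0.97) and AT4G35660 and AT4G18180 (both 0.96). In deviations from the group means CML30 gave 0.75, AT2G41950 0.65 and AT2G46300 0.34, whereas AT4G35660 and AT4G18180 were negative, at -0.34 and -0.31.

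The other 18 pentatricopeptide repeat genes are the remaining members of a list written by hand from known loci, with earlier results of these data known. The 3 genes were taken out of that list for their falls, so the rest holds fewer strong falls. By limma over all probes with Benjamini-Hochberg adjustment at 0.05, 4 of the 18 were called lower and 3 higher in recovery, and 11 passed in neither direction; the sign of 1 of the 4, AT3G26630, turned with the scaling. That is 22.2% lower and 16.7% higher, beside 19.3% of all probes called lower and 21.4% called higher. The median change of the 18 was -0.22, against 0.11 for all probes. In deposited signal 11 of the 18 had all recovery samples below all cold samples, or 61.1% beside 49.2% of all probes. After quantile normalization 2 of the 18 did, or 11.1% beside 15.9% of all probes.

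AT5G15280 showed the largest fall of these 18 genes, and a larger one than AT3G49740. Its signal was 0.0921, 0.0419, 0.0195, 0.0157, 0 and 0 in recovery samples 1 to 6, against 0.624, 0.567, 0.489, 0.495, 0.642 and 0.523 in cold samples 1 to 6. As in AT1G31790, the recovery values were highest in samples 1 and 2 and lowest in samples 5 and 6, here listed at 0. The change was -2.25 ± 0.39 (SE, n = 3 per group; limma adjusted p = 0.00119), and since 4 of 6 recovery samples lay below the pseudocount, its size rests on that constant.

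AT2G46050 stood next to AT3G49740 in the order of changes, at -1.01 ± 0.26 (SE, n = 3 per group; limma adjusted p = 0.0105). Its signal ran from 0.0529 over a median of 0.0994 to 0.188 in recovery and from 0.409 over 0.623 to 0.767 in cold, and after quantile normalization the samples of the groups overlapped. The call was lost without cold samples 5 and 6 (adjusted p = 0.0514).

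AT4G21170 fell by 0.58 ± 0.15 (limma adjusted p = 0.0123), with a signal of 0.259 to 0.541 in recovery and 0.900 to 1.20 in cold. After quantile normalization its recovery and cold samples overlapped. Its call was lost when samples were centred on medians (-0.31, adjusted p = 0.136), when they were brought to one median ahead of the pseudocount (-0.13, 0.418) and without recovery sample 2 (-0.45, 0.0813). AT3G26630, among the brightest genes of the family, had a signal of 3.42 to 4.23 in recovery and 4.94 to 6.60 in cold, and a change of -0.49 ± 0.13 (limma adjusted p = 0.0148). The sign of AT3G26630 turned with the scaling, to 0.62 after centring on medians and to 0.89 with one median ahead of the pseudocount (adjusted p = 0.00760 and 0.00688), so that no direction is given for it.

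The sizes of the changes of the 3 genes called higher depended on the scaling, and all 3 changes were below 0 as deposited. AT2G19280 had a signal of 0.631 to 0.790 in recovery and 0.677 to 0.928 in cold, a change of 0.71 ± 0.16 relative to the other probes (limma adjusted p = 0.00456), 1.05 with samples centred on medians, 1.26 with one median ahead of the pseudocount and -0.12 as deposited. AT4G04370 changed by 0.77 ± 0.24 (adjusted p = 0.0276) and AT4G14050 by 0.51 ± 0.18 (adjusted p = 0.0462). These changes were 0.96 and 0.93 with samples centred on medians, 1.13 and 1.15 with one median ahead of the pseudocount and -0.21 and -0.24 as deposited, and with cyclic loess neither was called (adjusted p = 0.0558 and 0.299). The call of AT4G04370 was also lost with pairs within a group as a random block (adjusted p = 0.0585) and without cold sample 1 (0.171). It was lost too without each of 4 of the 6 pairs (0.0651 to 0.103). The call of AT4G14050 was lost without recovery sample 2, 3 or 6 or cold sample 4 or 5 (adjusted p = 0.0511 to 0.0570). It was further lost without each of 4 of the 6 pairs (0.0928 to 0.168) and in limma without trend (0.0888). For all 3 the deposited signals of the groups overlapped, so that higher here means that they lost less signal than the typical probe.

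Among the 11 genes that passed in neither direction, changes ran from -0.53 to 0.27 and adjusted p-values from 0.0945 to 0.976. They include the 3 genes of the family that the gene table names by function. CRR21, which is needed for editing of a chloroplast transcript of the NDH complex, changed by -0.30 ± 0.19 (SE; limma adjusted p = 0.234). OTP85, another chloroplast editing factor, changed by -0.28 ± 0.23 (adjusted p = 0.354). OTP70, which acts in the splicing of a chloroplast transcript for RNA polymerase, changed by -0.030 ± 0.21 (adjusted p = 0.924). With no scaling, which put the median probe at -0.86, they stood at -1.45, -1.44 and -1.09, and all 3 were called lower, as were 13 of the 18 genes and 58.9% of all probes.

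**Figure D4:**
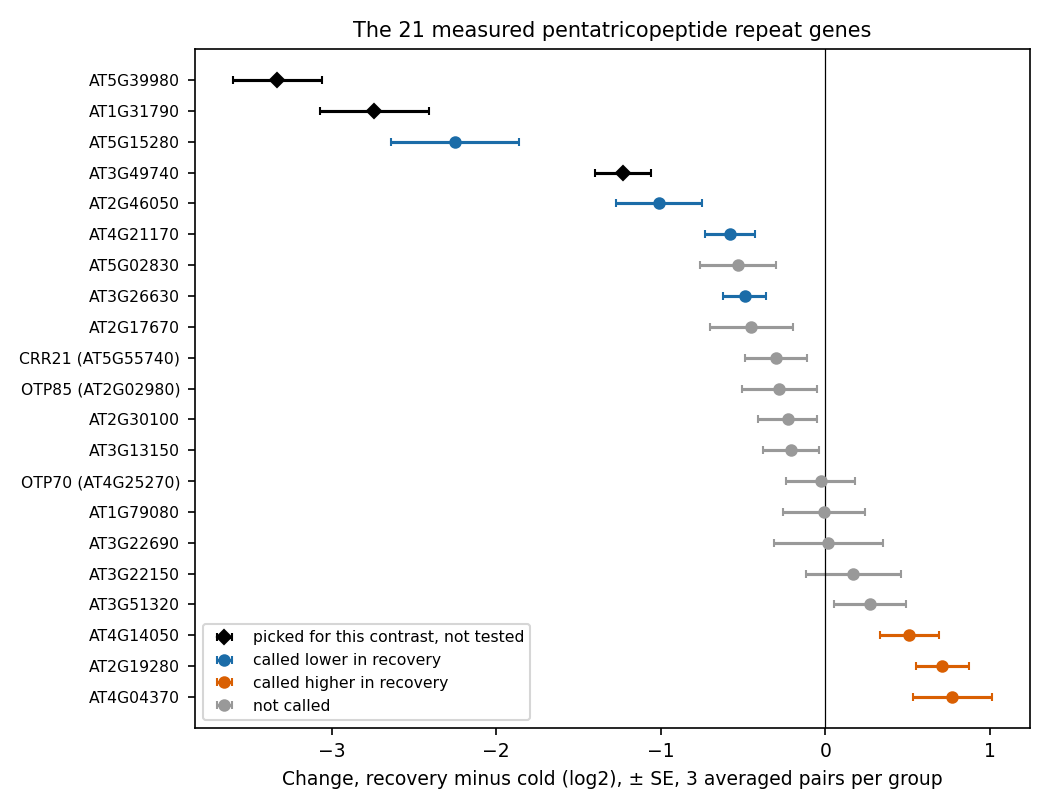
Change (recovery minus cold, log2 after quantile normalization, horizontal axis) of the 21 measured pentatricopeptide repeat genes. Bars give the moderated SE of the limma fit, with 3 averaged pairs per group. Black diamonds are the 3 genes picked for this contrast, blue and orange points the genes called lower and higher by limma at an adjusted p of 0.05, and grey points those not called; AT5G15280 (-2.25) lies between AT1G31790 (-2.74) and AT3G49740 (-1.23).

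Other gene groups that act on organelle or other RNA are given for comparison by their counts. Of 7 genes of the mTERF family, which bind organelle nucleic acids, 1 was called lower and 3 higher, or 14.3% and 42.9%, beside 19.3% and 21.4% of all probes; the 1 called lower was AT3G18870, at -2.96, which was seen before the list was written. Of 14 other genes for RNA binding or RNA processing, 0 were called lower and 4 higher by limma (1 lower at an unadjusted p under 0.05), which makes 28.6% higher beside the same 21.4%, with changes of -0.53 to 1.01 and a median of 0.50. The median of all probes of 1 gene was 0.082. Whether these groups differ from the pentatricopeptide repeat genes was not tested.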

How the data were processed

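The authors deposited signal values of 12 arrays in 1 table; the correction and scaling behind them, and the meaning of 0 and 100, are not given in the sources used here. Batches are not named, so batch and group cannot be told apart. The platform annotation gives 1 gene for 692 of the 3439 probes, several for 870, and does not list 1877; symbols came from it and a RefSeq gene table (TAIR10.1, names only). Gene descriptions and sequences were not used here, so families, planned to be chosen by description, were listed by hand from known loci. The genes and lists were chosen with earlier results of these data known. Signals were analysed as log2(signal + 0.0415), the 10th percentile of positive signals, quantile normalized, and averaged by pairs.

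Within-pair correlations of deviations from the group mean were -0.033 to 0.063 in recovery and 0.34 to 0.50 in cold. Over the brightest 25% of probes they were 0.32 to 0.55 in recovery and 0.72 to 0.84 in cold. Recovery was compared with cold by limma 3.58.1 (R 4.3.3, lmFit, eBayes with trend) over all probes, with Benjamini-Hochberg adjustment. The fit was also run on simulated data with few changed probes, as many up as down, and no shift between whole arrays. That run cannot test the scaling or signals listed at 0, and nothing is drawn from it. Genes named are the 3 genes, the other called genes of the family, CRR21, OTP85 and OTP70 (picked by their names), and the 5 nearest genes by correlation. Alternatives covered scaling, pseudocount, a filter on dim probes, variance model, thresholds, blocks and samples left out. The number of arrays limits the precision.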

Additional observations from a re-analysis of the deposited data

Results flagged for a closer look

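In AT4G04370, recovery sample 2 stood apart from the other 5 recovery samples, at 0.20 on the normalized log2 scale against -0.56 for the next highest, a gap of 0.68 of the group's whole range. Its deposited signal was 0.927, against 0.321 to 0.462 in the other recovery samples. The cold sample with the same number was high as well, at 1.03 against 0.372 to 0.527 in the other cold samples. This was 1 flag among 26 groups examined, and chance flags about 1 in 20 groups. The cause was not tested.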

How the results depend on the processing

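The changes of AT5G39980, AT1G31790 and AT3G49740 were below 0 in all 27 alternatives run for each, but the genes were chosen for their falls. Taking the 12 samples as independent, or with a block for the replicate number, could not alter these changes. With samples or pairs left out they ran from -3.77 to -3.13, -3.09 to -2.34 and -1.34 to -1.16. As deposited they were -4.14, -3.68 and -2.21; AT3G49740 was at -1.03 after centring on medians and -0.90 with one median ahead of the pseudocount. Of the other 18 pentatricopeptide repeat genes, 13 were called lower and 0 higher by limma as deposited (0 higher at an unadjusted p under 0.05), 2 lower and 6 higher both centred and brought to one median, and 1 higher with cyclic loess. At an adjusted p under 0.01 there were 1 lower and 1 higher, and with at least 2-fold change 2 lower and 0 higher (0 higher at an unadjusted p too), by construction. With samples or pairs left out, 2 to 4 were lower (2 without cold samples 5 and 6). Called higher were 1 to 3 (1 without recovery or cold samples 3 and 4). Over all probes 664 were lower and 735 higher (52.5% of calls higher). As deposited the counts were 2024 and 192 (8.66%), and centred 535 and 1237 (69.8%). Brought to one median they were 519 and 887 (63.1%), and with cyclic loess 723 and 638 (46.9%). At 2-fold they were 441 and 366, and at 0.01 429 were higher. Whether the 18 shifted more than all probes was not tested. The near-zero change of OTP70 turned to 0.087 centred, 0.23 brought to one median, and ran from -0.20 to 0.19 with samples or pairs left out; as deposited AT2G19280, AT4G04370 and AT4G14050 turned to -0.12, -0.21 and -0.24, and AT3G26630 to 0.62 centred and 0.89 brought to one median. AT3G26630 lost its call without samples 5 and 6 of recovery (adjusted p = 0.0582) or cold (0.0507). AT4G04370 and AT4G14050 each lost theirs without 4 of the 6 pairs (0.0651 to 0.103 and 0.0928 to 0.168). The cause of these shifts was not tested. Same-numbered samples of the 2 groups correlated at 0.0054 to 0.15 over all probes (2 of 6 above 0.1). Over the brightest 25% they correlated at 0.024 to 0.29 (4 of 6 above 0.1). Since not all 6 passed 0.1, the numbers were not taken to pair the samples. The averaged recovery samples gave no higher values over all probes, at -0.033 to 0.063. The 2 ranges are not directly comparable, since only averaged samples share a group mean. With the replicate block 5 of the 18 were lower and 3 higher, the same as with 12 independent samples; with pairs as a random block 4 were lower and 2 higher, AT4G04370 being lost (adjusted p = 0.0585). In AT1G31790 and AT5G15280, recovery signals below the pseudocount limit what can be measured.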
